A study of Mus musculus with 5 samples.

Results

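The enzymes and carriers that feed carbon into the tricarboxylic acid (TCA) cycle, turn it and burn fatty acids in mitochondria were compared between a cultured CD8 T cell clone and stimulated spleen cells of mice transgenic for the same antigen receptor. The set holds 43 genes given by name. Each was read from the brightest of its probe sets by mean signal over the 5 arrays, among probe sets assigned to 1 gene symbol only. Such a probe set was found for 42 of the 43, of 18193 genes in all, and Mpc2 was not analysed here. All 42 passed the filter on dim probe sets, as did 12446 genes of the whole array.

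The clone, G9C8, is a cytotoxic line that recognises an insulin B chain peptide. It was kept in vitro, and 3 separately frozen vials gave 1 array each. The other group was spleen cells of 2 NOD.G9C8 mice, 4 to 8 weeks old, which carry the G9C8 receptor as a transgene on the NOD/LtJ background, a strain prone to autoimmune diabetes, with 1 array per mouse. Each culture was stimulated for 3 days with 10 µg/ml of that peptide, followed by 2 days of rest with 5 IU/ml of IL2. The comparison sets 1 clone kept in culture against spleen cells taken from mice. The labels name no sort before RNA extraction and no strain for the clone. Values are array signals, 1 number per probe set, and differences are given as clone minus transgenic on the log2(signal + 20) scale, which understates the change of dim genes. Calls rest on limma with Benjamini-Hochberg adjustment over all 12446 genes, at a threshold of 0.05.

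Pyruvate made by glycolysis enters mitochondria through a carrier. There it is either oxidised to acetyl-CoA by the pyruvate dehydrogenase complex or carboxylated to oxaloacetate by pyruvate carboxylase, a reaction called anaplerosis because it refills the cycle. Fatty acids enter as carnitine esters and are shortened to acetyl-CoA by beta oxidation. In T cells, rapid growth after activation is known to draw cycle intermediates off for synthesis, while fat oxidation is usually associated with resting and memory cells.

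Promoter windows of the members whose values carry the comparison are shown first, from RefSeq on build GRCm38.p6. Each covers 250 bases before to 50 bases after a start site and reads 5′ to 3′ on the gene's own strand. The 2 Pcx windows belong to start sites 83847 bases apart (chr19:4510222-4510521 and chr19:4594069-4594368, plus strand), and this gene had the largest difference of the set. Cpt1a (chr19:3323051-3323350, plus strand) and Idh2 (chr7:80115301-80115600, minus strand) were the members with the largest differences toward the transgenic cells. In these windows capitals mark motif matches on either strand, of the CCAAT box (CCAAT), the GC box (GGGCGG) and the E-box (CACGTG).
Pcx, upstream start: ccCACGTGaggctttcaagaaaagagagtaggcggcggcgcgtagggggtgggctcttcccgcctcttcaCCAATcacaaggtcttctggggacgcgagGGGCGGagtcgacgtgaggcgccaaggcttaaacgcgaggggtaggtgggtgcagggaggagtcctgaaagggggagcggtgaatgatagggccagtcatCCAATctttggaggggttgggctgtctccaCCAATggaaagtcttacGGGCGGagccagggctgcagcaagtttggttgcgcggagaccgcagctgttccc
Pcx, downstream start: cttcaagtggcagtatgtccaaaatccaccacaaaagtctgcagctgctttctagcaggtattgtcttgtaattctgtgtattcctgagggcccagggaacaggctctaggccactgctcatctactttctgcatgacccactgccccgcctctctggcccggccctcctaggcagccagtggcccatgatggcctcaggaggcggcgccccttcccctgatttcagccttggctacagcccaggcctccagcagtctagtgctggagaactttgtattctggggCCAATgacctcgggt
Cpt1a: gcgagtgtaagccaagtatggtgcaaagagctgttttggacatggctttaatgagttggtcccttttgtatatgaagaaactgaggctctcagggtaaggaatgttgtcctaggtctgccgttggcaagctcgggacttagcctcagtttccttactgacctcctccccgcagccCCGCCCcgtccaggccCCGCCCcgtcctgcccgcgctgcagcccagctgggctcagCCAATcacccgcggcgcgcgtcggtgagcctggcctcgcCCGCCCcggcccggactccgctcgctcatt
Idh2: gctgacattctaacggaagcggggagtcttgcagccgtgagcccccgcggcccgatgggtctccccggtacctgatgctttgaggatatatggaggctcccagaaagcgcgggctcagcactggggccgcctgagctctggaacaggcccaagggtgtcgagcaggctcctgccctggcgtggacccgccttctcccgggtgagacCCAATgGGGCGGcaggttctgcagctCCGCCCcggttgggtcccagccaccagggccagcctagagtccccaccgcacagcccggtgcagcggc

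The genes of both subunits of the mitochondrial trifunctional protein, Hadha and Hadhb, lie head to head with start sites 273 bases apart, and 228 bases belong to both promoter windows. The window of Hadhb (chr5:30155003-30155302, plus strand) is printed with this shared stretch in capitals. The brightest probe set of Hadhb, marked as cross-hybridizing, was called at 1.10. Unmarked probe sets of Hadhb gave 0.18 and -0.27 and Hadha gave -0.10, none of them called.
Hadhb: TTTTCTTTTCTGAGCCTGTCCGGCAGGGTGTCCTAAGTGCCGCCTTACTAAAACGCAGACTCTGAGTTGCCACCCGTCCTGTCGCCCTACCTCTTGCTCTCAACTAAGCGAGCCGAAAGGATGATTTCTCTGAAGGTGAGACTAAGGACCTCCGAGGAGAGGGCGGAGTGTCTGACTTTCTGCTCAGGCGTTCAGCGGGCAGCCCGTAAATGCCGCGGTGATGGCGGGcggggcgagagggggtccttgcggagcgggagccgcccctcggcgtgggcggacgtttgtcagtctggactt

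A window was matched for 39 of the 43 members. The search for member windows left out chromosome 18, where Me2 lies, and the count over all genes did not. The GC box was in at least 1 window of 28 of them (71.8%, against 38.2% of 27025 genes with a window) and CCAAT in 22 (56.4% against 41.1%). An ETS motif (CCGGAAG) was in 8 members (20.5% against 9.93%) and an NRF1 core (GCGCANGCG) in 6 (15.4% against 7.03%). The E-box was in 3 (7.69% against 8.09%), and an extended ERR site (TNAAGGTCA) and a CARE element (TGATGNAA) in 1 each (2.56%, against 1.43% and 4.51%). Both strands were searched, and the letters of none of these motifs contain those of another. Of the 3 members called lower, Cpt1a and Idh2 held the CCAAT and GC boxes and Suclg1 held none of the motifs. These matches describe the letters of the windows and say nothing of binding.

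Most called members were higher in the clone. Of the 42 tested, 22 were higher (52.4%), 3 lower (7.14%) and 17 not called. Over all genes tested, 22.0% were called higher, 21.7% lower and 43.8% in either direction. The median difference of the members was 0.31, against -0.01 over all genes. The 3 clone arrays lay wholly above both transgenic arrays in 25 members and wholly below in 6, together 31 of 42, where 64.5% of all genes did not overlap. The members were bright, with a median at percentile 85.2 of mean signal, and their median standard error was 0.11 against 0.16 over all genes. Without the first transgenic array 14 members were called higher and 2 lower, and 3635 genes in all in place of 5448. A call held under each of 15 alternative settings for 12 members, namely Pcx, Pdp1, Mpc1, Dlat, Idh2, Suclg2, Sdhb, Sdhc, Got2, Slc25a1, Acadm and Acadl.

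**Figure D1:**
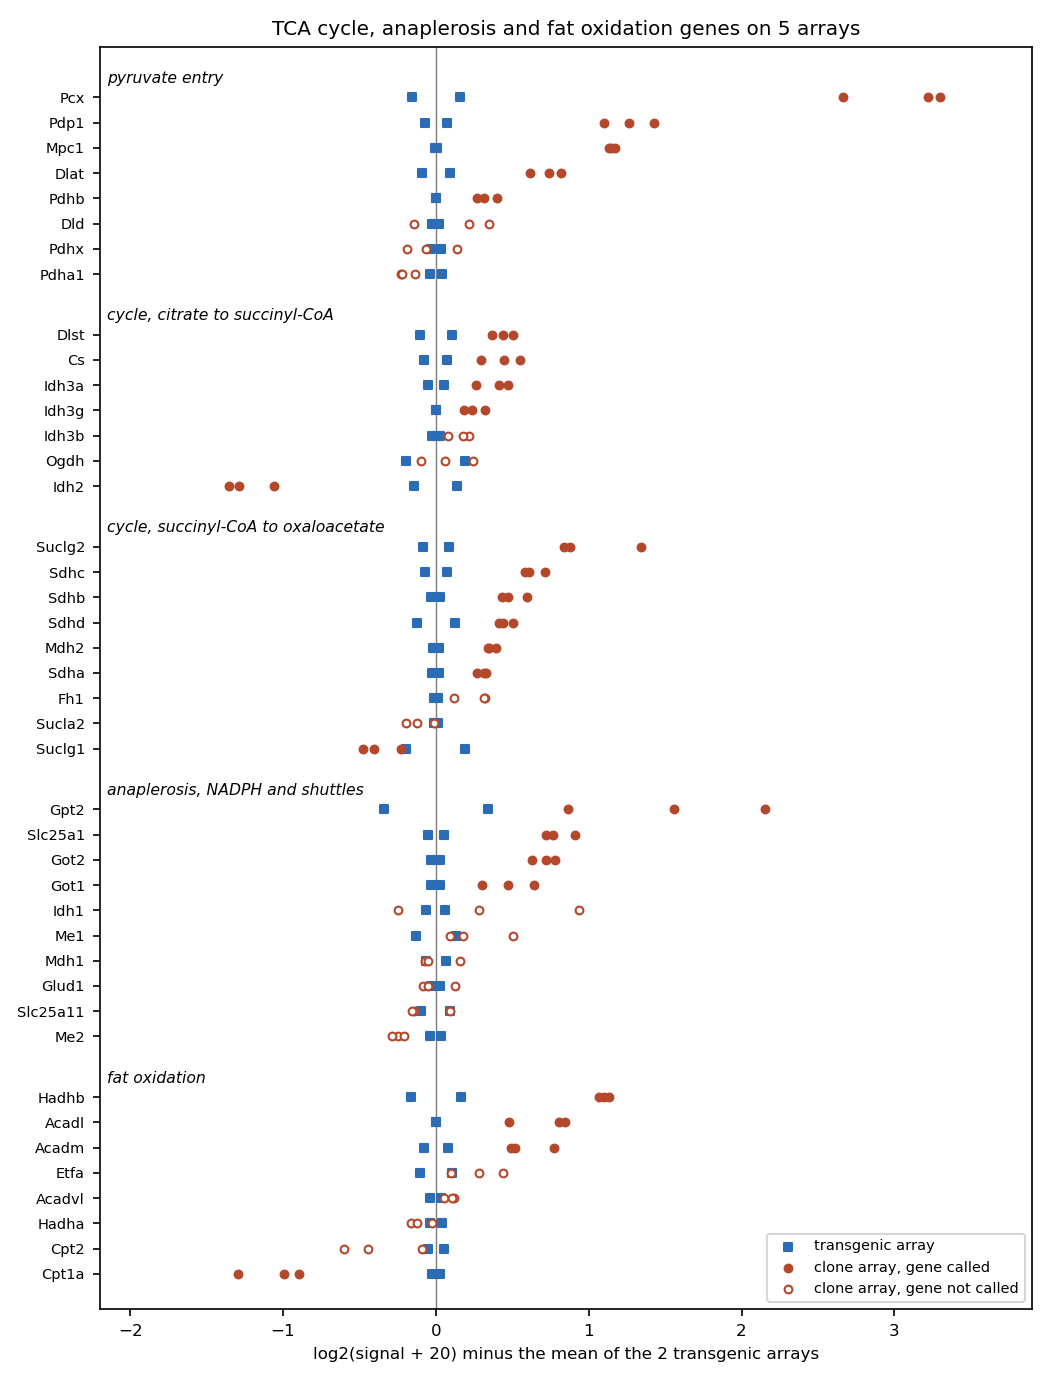
Level of each of the 42 measured members on each array, as log2(signal + 20) minus the mean of the 2 transgenic arrays, by role. Blue squares are transgenic arrays and red circles clone arrays, the circles filled where the gene was called and open where not; Pcx stands farthest to the right at a difference of 3.06, and Idh2 and Cpt1a farthest to the left.

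Genes that mark the T cells were bright in both groups, with summed signals of 8 of 9 listed markers between 62389 and 71303 in the clone and 83737 and 92681 in the transgenic arrays. Of these 8, 5 were called lower in the clone (Cd2 at -1.75, Cd247 at -1.37, Cd8a at -0.68, Cd8b1 at -0.65 and Cd3d at -0.49) and none higher. Among CD4 T cell markers, Cd4 lay below the filter level. Zbtb7b (0.07) and Foxp3 (-0.16) passed it, with overlapping groups and no call. The summed signal of 9 myeloid markers was 1582 to 1965 in the clone and 5650 to 8426 in the transgenic arrays, with 5 called lower in the clone and none higher. Lyz2, the macrophage and granulocyte lysozyme, supplied most of the transgenic sum (3497 of 5650 and 5549 of 8426) and gave at most 327 in the clone. Cd68 (0.50) and Fcgr1 (0.34) had all clone arrays above both transgenic ones and were not called. Dendritic cell markers, 7 in all, summed to 659 to 716 in the clone against 2812 to 3647, with 4 called lower, while Flt3 and Siglech overlapped. B cell markers summed to 378 to 657 against 1079 to 1172, with Cd79b called lower and Ms4a1 and Pax5 overlapping. Cd14, Cybb, H2-Aa, H2-Ab1 and Cd79b passed the filter only through the transgenic arrays. Neutrophil markers summed to 244 to 300 in the clone and 385 to 493 in the transgenic arrays, with none called. Of these, Csf3r had all clone arrays below (-1.04, adjusted p = 0.0503) and also passed the filter only through the transgenic arrays. Erythroid markers summed to 427 to 529 in the clone and 567 to 577 in the transgenic arrays, with none called. Platelet and stromal markers were each called lower in the clone for 1 gene and higher for none, and Itga2b, a platelet marker, had the clone arrays above without a call (0.31). The NK cell marker measured, Ncr1, lay below the filter at 75.9 to 91.0 in the clone and 55.1 to 78.6 in the transgenic arrays. The part of these cells in the differences below was not tested. In such bulk samples fewer cells of a type and less RNA per cell cannot be told apart.

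Pyruvate entry held the largest difference of the set. Pcx, which encodes pyruvate carboxylase, gave 1081, 729 and 1144 on the clone arrays (mean 985 ± 224, SD, n = 3) and 86.0 and 112.1 on the transgenic ones (99.1 ± 18.5, SD, n = 2). The transgenic signals lay around the filter level of 88.2, so the gene was bright in the clone and near the dim end in the transgenic cells, with no overlap. The clone was higher by 3.06 (SE 0.22, 95% interval 2.57 to 3.55, adjusted p = 1.53e-05), 8.34-fold on this scale. It ranged from 2.78 with a pseudocount of 50 to 3.29 with a pseudocount of 1. Pcx has 1 probe set, so the values do not tell its start sites apart.

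Mpc1 encodes a subunit of the mitochondrial pyruvate carrier. Its signals were 4277, 4235 and 4351 in the clone and 1911 and 1930 in the transgenic arrays, a narrow spread within each group and a difference of 1.15 (SE 0.08, adjusted p = 1.65e-05). Pdp1, the phosphatase that switches pyruvate dehydrogenase on, gave 694, 779 and 875 in the clone against 297 and 331. Its difference was 1.26 (SE 0.14, adjusted p = 0.000203). A dimmer probe set of Pdp1 gave 0.59 and was not called (adjusted p = 0.0689). By the brightest probe sets, all clone arrays lay well above both transgenic arrays for both genes.

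Of the genes for the dehydrogenase complex itself, Dlat and Pdhb were called higher and Pdha1, Dld and Pdhx were not called. Dlat, the acetyltransferase core, was higher (963, 834 and 910 against 503 and 572, difference 0.73, adjusted p = 0.00182). It was read by a probe set marked as cross-hybridizing. An unmarked probe set was also called, at 0.97, while another stood at -0.24 without a call. Pdhb, the beta subunit of its first enzyme, was higher by 0.33 (4366, 3991 and 4114 against 3300 and 3303, adjusted p = 0.0134). That call was lost without the first (0.0800) or the second transgenic array (0.0752). Pdha1, the alpha subunit of the same enzyme, gave 2973, 2992 and 3177 against 3584 and 3397. Its clone arrays were all below, yet it was not called (-0.19, 95% interval -0.39 to 0.00, adjusted p = 0.102). Dld, the shared dihydrolipoamide dehydrogenase, gave 1242, 879 and 1135 against 990 and 958 (0.14, -0.21 to 0.49). Pdhx, which binds it to the complex, stood at -0.04 (-0.44 to 0.36). The groups overlapped for both, and the sign of Pdhx turned under quantile normalization (0.09) and without the second clone array (0.04).

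**Figure D2:**
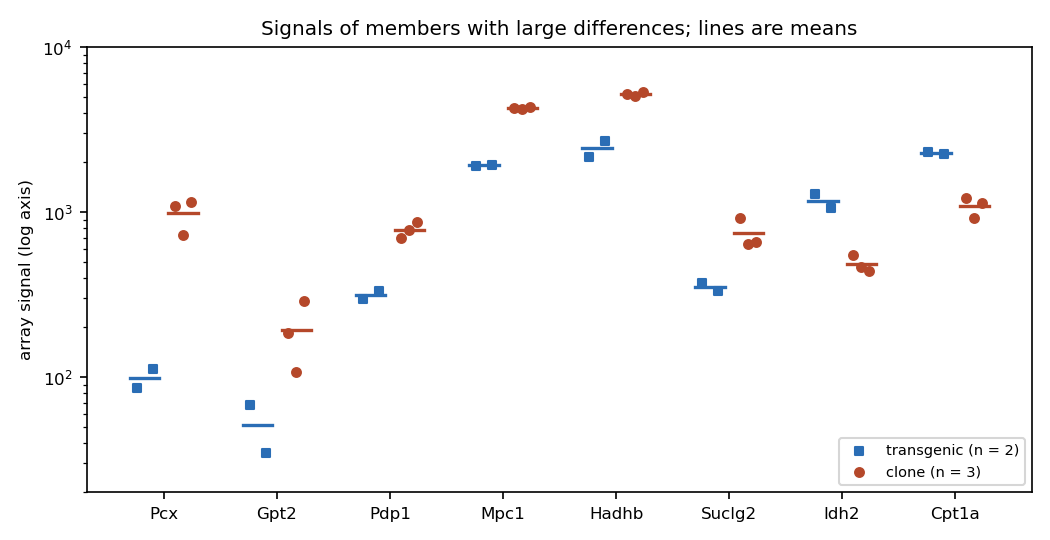
Array signal on a log axis for 8 members with large differences, with blue squares for 2 transgenic and red circles for 3 clone arrays and a line at each group mean. The groups do not overlap in any of the 8, and Idh2 and Cpt1a are the genes with the transgenic arrays on top.

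Genes of the first span of the cycle, from citrate to succinyl-CoA, were mostly higher. Of 7, 4 were called higher (by 0.25 to 0.44), 1 lower and 2 not called. The called share was 71.4%, against 43.8% of all genes. Cs, citrate synthase, gave 4410, 3966 and 4741 in the clone and 3061 and 3404 in the transgenic arrays, a difference of 0.43 (SE 0.10, adjusted p = 0.00975). Its other probe sets gave 0.73 and 0.47, both called. Leaving out the first transgenic array gave 0.36 and no call (adjusted p = 0.0935).

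Idh2 and Idh3a, both for isocitrate dehydrogenases, were called in opposite directions. Idh2, the mitochondrial enzyme that makes NADPH, gave 547, 465 and 442 in the clone (mean 485 ± 55.1, SD, n = 3) and 1283 and 1053 in the transgenic arrays (1168 ± 163, SD, n = 2). The clone arrays were all below, by a difference of -1.23 (SE 0.14, adjusted p = 0.000241), 2.35-fold lower in the clone. A dim second probe set gave -0.63 and was not called (adjusted p = 0.0569). Idh3a, the catalytic subunit of the NAD-dependent enzyme of the cycle, was higher by 0.38 (4011, 3607 and 4187 against 2901 and 3120, adjusted p = 0.0126). Without the first transgenic array its adjusted p was 0.103. Idh3g, a regulatory subunit, was called at 0.25 (adjusted p = 0.0436). That call ended without the first (0.172) or second transgenic (0.164) and without the first (0.0794) or the third clone array (0.122), while a further probe set was called at 0.59. Idh3b, the other regulatory subunit, was read by a probe set marked as matching several transcripts and gave 4522, 4971 and 4834 against 4351 and 4201. It was not called at 0.16 (adjusted p = 0.169), although 2 further probe sets of it were called at 0.40 and 0.69.

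The 2-oxoglutarate dehydrogenase genes were read differently by different probe sets. Dlst, its succinyltransferase core, was higher by the brightest probe set (1809, 1641 and 1725 against 1179 and 1365, difference 0.44, adjusted p = 0.0107). Another was called lower at -0.56 (adjusted p = 0.00949), another called higher at 0.65, and the last stood at -0.56 without a call. With the mean over probe sets the difference was -0.01, so the direction depended on the probe set, and without the first transgenic array the call of the brightest was lost (adjusted p = 0.107). Ogdh, the first enzyme of the complex, did not separate the groups (1623, 1430 and 1278 against 1198 and 1570, difference 0.07, -0.27 to 0.40). Its sign turned without the first transgenic (-0.13) or first clone array (-0.02), and a dim second probe set gave -0.87 with no call.

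In the second span, from succinyl-CoA to oxaloacetate, 6 of 9 genes were higher, 1 was lower and 2 were not called. The called share was 77.8%, against 43.8% of all genes. Succinate dehydrogenase, the enzyme that is also complex II of the respiratory chain, had all of its 4 subunit genes called higher. Sdhc, a membrane anchor, gave 3259, 3198 and 3503 against 2237 and 2020 (difference 0.64, SE 0.09, adjusted p = 0.000831). Sdhb, the iron-sulfur subunit, gave 6002, 5851 and 6548 against 4413 and 4235 (0.50, adjusted p = 0.00191). Sdhd, the second anchor, gave 3443, 3389 and 3601 against 2769 and 2321 (0.45, adjusted p = 0.00685). For all of these the clone arrays lay above both transgenic arrays.

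Sdha, the flavoprotein subunit, had the smallest of the 4 differences (0.30, adjusted p = 0.0158). A second bright probe set, marked as matching several transcripts, gave -0.19 without a call. With the mean over its probe sets Sdha was at 0.03, and it was not called without the first (0.0713) or second transgenic array (0.106). The Sdhd call was lost without the second transgenic array (0.33, adjusted p = 0.0751). A second probe set of Sdhd was called higher at 1.05, and one of Sdhc stood at 0.38 (adjusted p = 0.0686). Both are marked as cross-hybridizing.

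Succinyl-CoA ligase is made of a common alpha subunit, Suclg1, and a beta subunit that sets the nucleotide it forms, Suclg2 for GTP or Sucla2 for ATP. Suclg2 was higher in the clone (921, 644 and 662 against 374 and 331, difference 1.02, SE 0.18, adjusted p = 0.00191). The groups did not overlap. This probe set is marked as matching several transcripts, and an unmarked one was also called, at 0.94. Sucla2 gave 2690, 2366 and 2486 against 2688 and 2743 and was not called (-0.11, -0.33 to 0.10). Suclg1 was called lower (2802, 3329 and 2936 against 4463 and 3409, -0.37, adjusted p = 0.0494). That call was lost without the first transgenic (-0.18, adjusted p = 0.391), first clone (0.127) or the third clone array (0.110). The beta subunit differences were not tested against each other.

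Of the last steps, 1 gene was called. Mdh2, mitochondrial malate dehydrogenase, was higher by 0.36 (9802, 9783 and 10126 against 7600 and 7816, adjusted p = 0.00506), a small difference between tight groups. Its second probe set also gave 0.36 and was called. Without the first transgenic array the adjusted p was 0.0532. Fh1, fumarase, was not called at 0.25 (2930, 2537 and 2913 against 2358 and 2322, adjusted p = 0.0706), although its groups did not overlap. It was called without the second clone array (0.32, adjusted p = 0.0199).

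Among enzymes that feed or tap the cycle, 4 of 10 were higher and 6 were not called. The called share of 40% is near the 43.8% of all genes. Gpt2, the mitochondrial alanine aminotransferase that makes 2-oxoglutarate from glutamate and pyruvate, had the largest difference (185, 106.7 and 289 against 68.1 and 34.9). Its arrays were dim and spread widely within both groups without overlapping, and it passed the filter only through the clone arrays (mean 194 against 51.5). The difference was 1.53 (SE 0.40, 0.62 to 2.43, adjusted p = 0.0142), and it was not called without the second transgenic array (1.18, adjusted p = 0.100). Further probe sets stood at 1.83 and 2.45, but both are marked as matching several transcripts and also passed the filter only through the clone, so they add no support.

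Slc25a1, the carrier that exports citrate for fatty acid synthesis, gave 1746, 1694 and 1934 in the clone and 983 and 1055 in the transgenic arrays (difference 0.80, SE 0.10, adjusted p = 0.000442). Got2, the mitochondrial aspartate aminotransferase, gave 4467, 4765 and 4954 against 2945 and 2822 (0.71, SE 0.09, adjusted p = 0.000314). A second Got2 probe set was called at 0.82. Got1, its cytosolic counterpart, was higher by 0.47 (1396, 1239 and 1573 against 978 and 1020, adjusted p = 0.0138). That call was lost without the first (0.0881) or the second transgenic array (0.0570).

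In this role group, Mdh1 and Slc25a11 of the malate-aspartate shuttle were not called by their brightest probe sets, and nor was Glud1. Mdh2, also of that shuttle, was called higher (0.36, given above with the cycle). Mdh1, cytosolic malate dehydrogenase, gave 12827, 15084 and 13005 against 12903 and 14127 (0.01, -0.21 to 0.23). That probe set is marked as cross-hybridizing, as is a dimmer one of Mdh1 called at 0.34 (adjusted p = 0.0431). An unmarked one gave 0.19 without a call. The sign of Mdh1 turned under quantile normalization (-0.05) and without the first transgenic (-0.05) or second clone array (-0.06). Slc25a11, the 2-oxoglutarate carrier, was at -0.07 (-0.33 to 0.19), and at 0.03 without the second transgenic array. Glud1, glutamate dehydrogenase, gave 4064, 4161 and 4691 against 4221 and 4391. Its difference was -0.0028 (-0.22 to 0.21), and its sign turned without the second transgenic, first clone or second clone array (0.02 to 0.04) and with the mean over probe sets (0.04).

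Idh1 and the malic enzyme genes of this group were not called. Idh1, the cytosolic isocitrate dehydrogenase, gave 622, 262 and 387 on the clone arrays and 301 and 330 on the transgenic ones, so that the first clone array was high and the groups overlapped (0.32, -0.36 to 1.01). Me1, the cytosolic malic enzyme, differed by 0.26 (-0.19 to 0.71). Me2, the mitochondrial one, had the clone arrays all below at -0.25 (adjusted p = 0.0724), while a dimmer probe set gave 0.65 and the mean over its probe sets 0.04, neither called.

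Of 8 fat oxidation members 3 were higher, 1 lower and 4 not called, a called share of 50% near the 43.8% of all genes. Cpt1a makes the acylcarnitine that enters mitochondria and is the controlling step of the pathway. Its brightest probe set gave 1215, 919 and 1134 in the clone and 2322 and 2236 in the transgenic arrays, with no overlap. The difference was -1.06 (SE 0.13, -1.36 to -0.76, adjusted p = 0.000315), 2.09-fold lower in the clone. Against this, 2 dimmer probe sets of Cpt1a, both marked as cross-hybridizing, stood at 0.36 without a call and at 1.03 with one (adjusted p = 0.00473), and the mean over the 3 was 0.11 with no call.

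Cpt2, which reverses that step inside the mitochondrion, gave 518, 359 and 403 against 575 and 534, all clone arrays below, and was not called (-0.38, -0.77 to 0.02, adjusted p = 0.110). Without the first clone array it was called (-0.52, adjusted p = 0.0327). The acyl-CoA dehydrogenases of medium and long chains were higher. Acadm gave 3771, 4599 and 3850 against 2831 and 2541 (0.59, adjusted p = 0.00294), and Acadl 2202, 1709 and 2147 against 1222 and 1218 (0.71, adjusted p = 0.00221). Neither gene's groups overlapped. Acadvl, for very long chains, differed by 0.09 (2083, 2180 and 2162 against 1955 and 2054, -0.11 to 0.30) and was not called.

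The trifunctional protein catalyses the next steps for long chains. Hadhb, its thiolase subunit, was called higher by its brightest probe set (5213, 5077 and 5329 against 2157 and 2707, difference 1.10, SE 0.11, adjusted p = 9.49e-05). That probe set is marked as cross-hybridizing. An unmarked one gave 3191, 3839 and 3383 against 3126 and 2996, a difference of 0.18 that was not called (adjusted p = 0.205). The last, unmarked and dimmer, stood at -0.27 without a call (adjusted p = 0.196). Hadha, the other subunit, gave 1867, 1691 and 1742 against 1950 and 1843 and was not called (-0.10, -0.32 to 0.12). The larger value for Hadhb therefore rests on 1 of its probe sets. Etfa, which passes electrons from the dehydrogenases to the respiratory chain, was at 0.27 (3173, 2783 and 3533 against 2797 and 2419, adjusted p = 0.103). It was called without the second clone array (0.36, adjusted p = 0.0273).

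**Figure D3:**
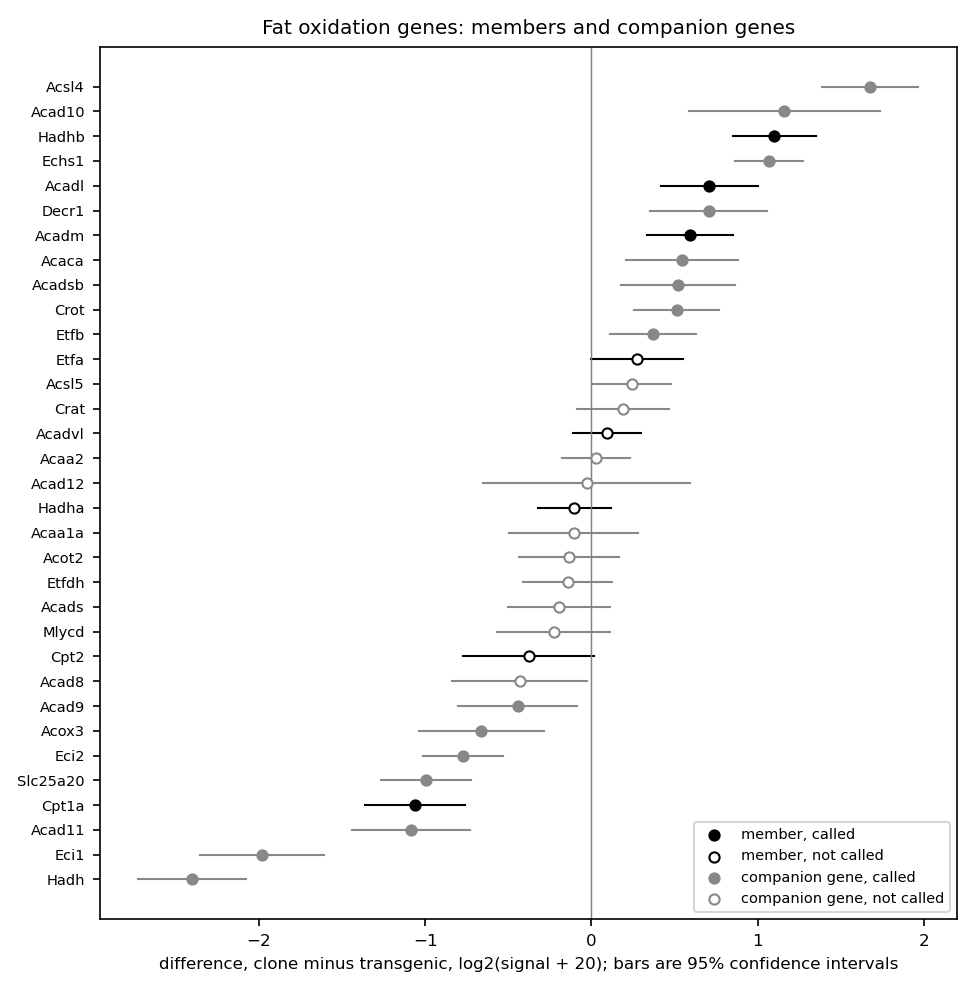
Differences of 33 fat oxidation genes, clone minus transgenic on the log2(signal + 20) scale with 95% confidence intervals: 8 members in black and 25 companion genes in grey, filled where called. Called genes lie on both sides, from Acsl4 at 1.67 to Hadh at -2.40. Acaca, a gene of fatty acid synthesis, is counted among the 25 companion genes.

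Probe sets of one member differed in sign in places. Further probe sets above the filter were present for 26 members, 42 in all, of which 29 had the sign of the brightest and 13 the opposite sign. Tested one by one over 22322 probe sets, of which 43.6% were called, at least 1 further probe set repeated the call for 10 of the 17 called members that had one, Gpt2 among them with the limit given above. The opposite call was made by 2 probe sets, those of Dlst and Cpt1a named above. Differences of over 0.5 against the sign of the brightest were seen for 5 probe sets, of Ogdh, Dlst, Me2 and Cpt1a.

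**Figure D4:**
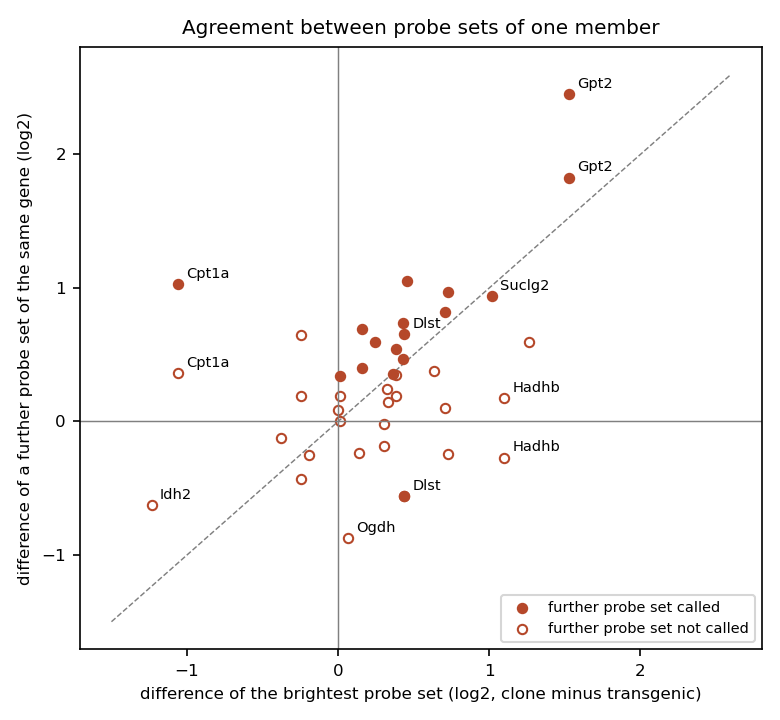
Each point is a further probe set of a member, with the difference of the gene's brightest probe set on the horizontal axis and its own on the vertical axis (log2, clone minus transgenic). Filled points are further probe sets that were called, and the dashed line marks equal differences; Gpt2 and Suclg2 lie in the upper right, and points of Cpt1a in the upper left, where the signs oppose.

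Other genes of the same pathways were read from a second list of 76, of which 59 were tested, 9 lay below the filter and 8 had no probe set named here. Among them 18 were higher (30.5%), 11 lower (18.6%) and 30 not called, with a median of -0.03. Over all genes tested these shares were 22.0% and 21.7%. Without the first transgenic array 10 were called higher, and without the second 11.

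At the pyruvate branch, Pck2, which makes phosphoenolpyruvate from oxaloacetate in mitochondria, was higher (1588, 1301 and 1346 against 305 and 322, difference 2.10, SE 0.13, adjusted p = 7.14e-06). Pdk1, a kinase that switches pyruvate dehydrogenase off and so opposes Pdp1, was lower (346, 369 and 322 against 510 and 606, -0.66, adjusted p = 0.00683). Its other 3 probe sets were also called lower, at -1.07 to -1.47, and the call of the brightest was lost without the second transgenic array (-0.54, adjusted p = 0.0793). The other 6 genes tested in this group were not called, a called share of 25%, against 43.8% of all genes. Aco1, the cytosolic aconitase, was called at 0.36 by a cross-hybridizing probe set (adjusted p = 0.0199). An unmarked one gave -0.12, and the call was lost without the first transgenic (adjusted p = 0.169) or first clone array (0.0607). Sdhaf4, an assembly factor of succinate dehydrogenase, was called at 0.31 (adjusted p = 0.0425), and not without either transgenic (0.0630 and 0.274) or the first (0.104) or the third clone array (0.0826).

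Of 11 genes of glutamine, aspartate and redox shuttles, 5 were higher, none lower and 6 not called. The called share of 45.5% is near the 43.8% of all genes. Slc25a12, one of the 5, was higher by its brightest probe set (0.55), while further ones were called lower at -0.67 and -1.44. Gpd2, the mitochondrial arm of the glycerol phosphate shuttle, gave 1133, 864.5 and 895 in the clone and 193 and 245 in the transgenic arrays (2.04, SE 0.17, adjusted p = 3.45e-05). Aldh18a1, which starts proline synthesis from glutamate, was higher by 1.20 (adjusted p = 0.000119) with all 5 of its probe sets called. Most of these, the brightest included, are marked as cross-hybridizing, and an unmarked one gave 1.39. Pccb, a subunit of propionyl-CoA carboxylase that feeds succinyl-CoA into the cycle, was higher by 0.86 (adjusted p = 0.000674).

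Of the remaining fat oxidation list 8 of 25 genes were higher (32.0%), 7 lower (28.0%) and 10 not called. On the array 22.0% of genes were called higher and 21.7% lower. The 8 include Acaca, a gene of fatty acid synthesis (0.55). They also include Acad10, at 1.16 by a cross-hybridizing probe set, while an unmarked one gave -0.37 without a call. The sign of Acad10 turned when any 1 clone array was left out (-0.24 to -0.47). Acad9, counted lower at -0.44, had a further probe set called higher at 0.64. Hadh, the dehydrogenase for short and medium chains, gave 310, 390 and 402.5 in the clone and 2077 and 1951 in the transgenic arrays (-2.40, SE 0.14, adjusted p = 6.12e-06). An unmarked second probe set gave -2.58. Eci1, an isomerase needed for unsaturated chains, gave 176, 185 and 148 against 751 and 699 (-1.98, adjusted p = 3.5e-05). Slc25a20, the carnitine carrier that works between Cpt1a and Cpt2, was lower by both of its probe sets (-0.99 and -0.58, both called). The second is marked as matching several transcripts. Slc25a20 is named after its values were seen. Unnamed genes called with larger differences than Slc25a20 went both ways (Acad10 at 1.16, Echs1 at 1.07 and Acad11 at -1.08). Acsl4, an acyl-CoA synthetase with a preference for polyunsaturated fatty acids, was higher (7459, 8505 and 7996 against 2156 and 2867, 1.67, adjusted p = 2.28e-05). For Hadh, Eci1, Slc25a20 and Acsl4 the clone and transgenic arrays did not overlap, and each call held when any 1 array was left out.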

How the data were processed

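Total RNA of 5 cultures was hybridised to one-colour Affymetrix mouse arrays, starting from 8 µg per culture, per the labels' protocols. The deposited values are array intensity, 1 linear signal per probe set, which the authors made with GCOS (submitters' processing notes; no version is stated there). The 2% trimmed mean was 500.0 on every array, so the authors' scaling was kept and nothing further was normalized. Median signals were 132.3 to 133.0 in the clone and 140.7 to 141.9 in the transgenic arrays. The number of arrays limits the precision, and the only replicates behind each p-value are 3 vials of a single clone and 2 mice. Its variance is also moderated toward that of genes of like signal (3 residual and 8.36 total degrees of freedom). Detection calls and batches were not used here, and a genome build (GRCm38.p6) served only for RefSeq symbols and promoter windows.

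Of 45101 probe sets, 64 controls were left out and 34945 carry 1 symbol in the platform annotation. Checked against RefSeq GRCm38.p6 by gene identifier, 0 of the members' symbols changed. Values were taken as log2(signal + 20), kept at a mean signal of at least 88.2 (the 40th percentile) with the brightest probe set per gene, and tested two-sided over all 12446 genes by limma 3.58.1 under R 4.3.3 (moderated variances trended on intensity, Benjamini-Hochberg adjustment, 3 residual degrees of freedom). The fit was tested on simulated data.

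Members and lists were chosen with earlier results of these data known. Array values are given for the 4 called members of largest difference in each role, for Pcx and for up to 2 uncalled ones of highest signal. Array values of Pdhb, Suclg1, Mdh2, Idh1, Cpt2 and Hadha were added after their values were seen. Of the second list, the 3 called genes of largest difference per group are named. Slc25a12, Slc25a20, Echs1, Acad9, Acad10, Acad11, Acaca and Ppargc1a were named after their values were seen. Alternatives were quantile normalization, pseudocounts of 1 and 50, other filters (none, 60th percentile), averaging a gene's probe sets, dropping those marked _s_at or _x_at, other variance estimates, a replicate block, and omission of each array in turn. Testing every probe set singly was added after seeing the data. Motifs were searched in Python 3.11.15 with pandas 2.3.3, and figures drawn with matplotlib 3.10.9.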

Additional observations from a re-analysis of the deposited data

How the results depend on the processing

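The count of members called higher, 22, was 15 to 22 under settings that used all 5 arrays and 14 to 24 with 1 array left out. Members called lower numbered 3, and 1 with the mean over probe sets. The median difference, 0.31, was 0.23 under quantile normalization, which moved the median of all genes from -0.01 to 0.04. Companion genes called higher numbered 18, and 10 to 18 with 1 array left out. With the replicate number as a replicate block 15 members were called higher and 2 lower. Deviations of same-numbered arrays from their group means correlated at -0.027 and -0.083. The deviations of the 2 transgenic arrays mirror each other, so these values cannot tell whether same-numbered arrays shared any handling. With the mean over probe sets the sign turned for Dlst (-0.0061), Cpt1a (0.11), Ogdh (-0.40), Dld (-0.048), Me2 (0.039) and Glud1 (0.043). Quantile normalization turned Pdhx (0.089) and Mdh1 (-0.052). With 1 array left out the sign turned within the ranges of Pdhx (-0.13 to 0.037), Ogdh (-0.13 to 0.26), Mdh1 (-0.064 to 0.076), Glud1 (-0.066 to 0.037) and Slc25a11 (-0.16 to 0.026). Of 628 member values under alternatives, 565 kept sign and call, 40 lost the call, 6 gained one and 17 turned sign. The cause was not tested, except that leaving out an array leaves fewer samples; a lone transgenic array is assumed to vary like the clone arrays. Gpt2 has no value with the filter at the 60th percentile, nor Idh1 without the marked probe sets. No detection calls were used, so signal over background is not known for the dim members.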

Other observations

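Of 10 regulators of mitochondrial genes tested, 2 were called higher, 3 lower and 5 not called, and 2 lay below the filter. The called share of 50% is near the 43.8% of all genes. Nrf1, a transcription factor of respiratory chain genes, gave 416, 389 and 454 in the clone and 645 and 763 in the transgenic arrays (difference -0.72, adjusted p = 0.0035), and its 3 further probe sets were called lower at -0.48 to -2.14. Ppard, a fatty acid-sensing nuclear receptor, was higher at low signals (176, 157 and 170 against 79.2 and 91.3, 0.83, adjusted p = 0.0147), and not without the first transgenic array (adjusted p = 0.0876). It passed the filter only through the clone arrays. Pprc1, a coactivator of Nrf1, was called at 0.83 (adjusted p = 0.0168). That call was lost without the first (0.0980) or second transgenic (0.0598), or the first (0.0508) or the third clone array (0.0523). Ppargc1a, the best known coactivator of mitochondrial biogenesis, was dim and not called (-0.20, adjusted p = 0.580).

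The second clone array was the low one for most members. It was under the average of its group's remaining arrays in 34 of 42, with a median deviation of -0.10 on the log2 scale, whereas over all genes tested the median was 0.01. The first clone array lay above the others in 24 members and the third in 27. The transgenic arrays stood 21 against 21. Members that were not low on the second clone array include Acadm, at 0.27 above the others. Within a group the arrays of a member differed by a median SD of 0.11 in the clone and 0.07 in the transgenic cells, against 0.16 and 0.10 over all genes, and Gpt2 had the largest SD in both groups (0.64 and 0.48).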
